A study of Homo sapiens with 8 samples.

Results

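The RNA recovered with a biotinylated miR-2355-5p duplex was compared with that recovered with a control duplex, gene by gene. The cells were 786-0, an established human line from a clear cell renal carcinoma, kept in DMEM with serum and transfected for 48 h. Every library came from transfected cells, and the groups differed in the duplex alone, as far as the labels say. The comparison used 5 of the 8 libraries of the series: 2 with miR-2355 and 3 with the control duplex (titled Control_miR). The remaining 3, with miR-1271, entered the estimate of the spread and served as a second microRNA where stated. The design text speaks of triplicates, but 2 miR-2355 libraries were used here. All gene rows that passed a low-count filter were taken, 17351 of 60666. The rows carry Ensembl gene IDs, which the files do not pair with gene names, and the gene table used here held none of them (0 of 59792 entries). No gene could therefore be named with certainty, and the markers of a renal epithelial line were not checked.

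MicroRNAs guide Argonaute proteins to messenger RNAs by pairing of a short 5′ stretch, the seed, with sites that lie mostly in the 3′ untranslated regions, and the bound messages are repressed and often decayed. A biotin on the synthetic duplex lets the microRNA be captured on streptavidin together with RNA bound to it, so that a target can be enriched in the capture even while its level in the cell falls. The sequence that sets the pairing is shown here because the pulldowns differ by it. The mature sequences, from RefSeq on build GRCh38.p14, are written 5′ to 3′ with the seed, bases 2 to 8, in capitals:
miR-2355-5p: aUCCCCAGauacaauggacaa
miR-2355-3p: aUUGUCCUugcuguuuggagau
miR-1271-5p: cUUGGCACcuagcaagcacuca
The first is the captured strand, encoded on the minus strand of chromosome 2 at chr2:207110043-207110063, and the second is the opposite arm of the same hairpin, at chr2:207109999-207110020. The third is the other microRNA of the series, on the plus strand at chr5:176367960-176367981. A fully paired seed site for miR-2355-5p reads CUGGGGA in the target. Among 2370 mature human names in the sequence table, 1 carried this seed, miR-2355-5p itself. The seeds of miR-2355-5p and miR-1271-5p had the same base at 3 of 7 positions and no shared run longer than 2 bases. The sequences of the control duplex and of the synthetic strands as transfected are not given in sources used here, and target transcripts were not searched for sites, since the IDs could not be tied to sequences.

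The libraries held 4122875 to 22864693 counted reads. Those with miR-2355 had 18637410 and 14924700, while control replicate 2 was the shallowest of all. No measure of the RNA before the capture was used. An altered level in the cells and an altered recovery cannot be told apart, nor can fewer cells and less RNA per cell, and every level is a share of the RNA recovered. The labels do not say whether each library is its own culture. The p-values then measure only how these libraries vary, which may be technical.

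The capture with miR-2355 differed from the control in many genes, mostly by small amounts, and the large changes were mostly losses. In the edgeR quasi-likelihood test (Benjamini-Hochberg adjusted p under 0.05), 2127 genes were higher (12.3% of those tested) and 3044 lower (17.5%). Called in either direction were 29.8%. As sets, these genes moved to a like extent with miR-1271. Both comparisons used the same controls, against which the genes were picked, and this favours a shared direction. Median log2 fold changes over the higher genes were 0.615 with miR-2355 and 0.528 with miR-1271. Over the lower genes they were -0.885 and -0.87. In the direct contrast 11.8% of the higher genes were higher with miR-2355 than with miR-1271 (3.50% of all tested genes were). Of the lower genes 3.71% were lower (2.65% of all tested genes were). Of the higher genes 925 changed by less than 1.5-fold and 843 by 1.5- to 2-fold, while 313 lay between 2- and 4-fold, 39 between 4- and 8-fold and 7 beyond. The lower genes numbered 640, 1158, 1039, 173 and 34 in the same steps. The smallest change that was called was 1.25-fold among the higher and 1.26-fold among the lower genes. Over all tested genes the median log2 fold change was -0.0046. The tails were unequal: the 5th percentile lay at -1.27 and the 95th at 0.86, and the 1st and 99th at -2.11 and 1.47. The balance of directions depended on the scaling, since rises were 41.13% of all called genes under TMM factors and 52.03% under upper-quartile ones. Leaving out miR-2355 replicate 1, there were 760 higher and 1569 lower genes.

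**Figure D1:**
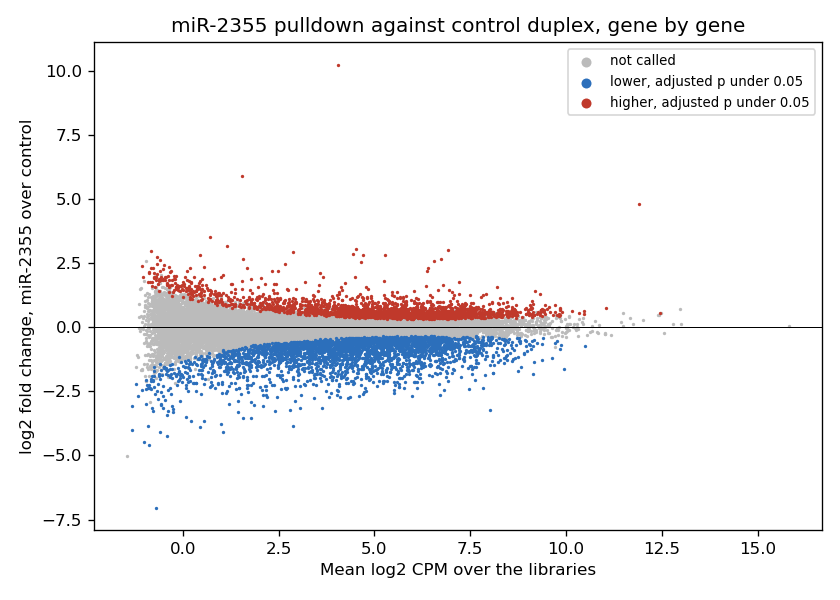
Each point is 1 of the 17351 tested genes. The x axis gives its mean log2 CPM and the y axis its log2 fold change, miR-2355 over control; red and blue mark genes higher and lower at an adjusted p under 0.05. Blue points reach further from 0 than red ones through most of the range, while single red points stand far above the rest.

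**Figure D2:**
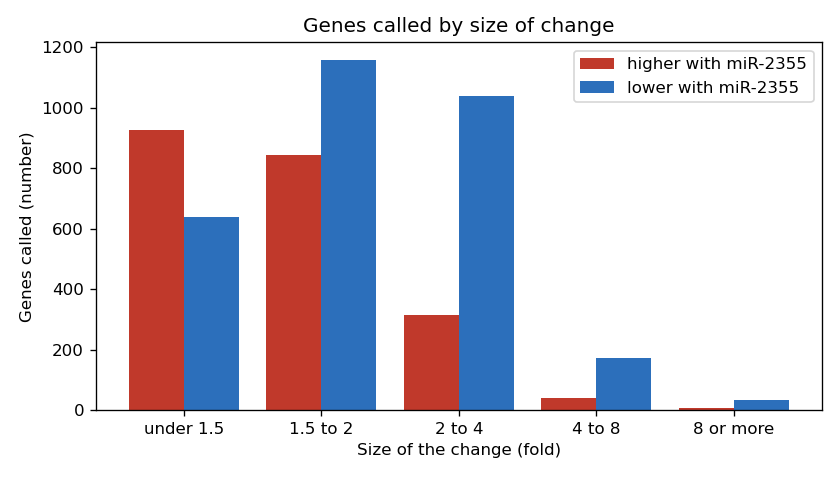
Bars count the called genes, higher (red) and lower (blue), by size of change in fold. Higher genes outnumber lower ones below 1.5-fold (925 against 640), and lower genes outnumber higher ones in every larger step.

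When the test asked for a change beyond a set fold, few rises were left and many falls. Past 1.5-fold there were 185 higher (1.07% of tested genes) and 1053 lower genes (6.07%; edgeR glmTreat, adjusted p under 0.05). Past 2-fold there were 48 higher (0.277%) and 380 lower (2.19%). The excess of falls was present at every level of abundance. In the 5 quintiles of mean log2 CPM, from the least to the most abundant, the falls past 2-fold numbered 22, 75, 105, 106 and 72. The rises numbered 6, 13, 10, 6 and 13 in the same order. The least abundant quintile was measured least precisely, with a median standard error of 0.486 on the log2 scale against 0.139 in the most abundant. Among the rises, the smallest log2 fold change that passed was 1.38. The next rise outside the threshold had a log2 fold change of 1.43 and an edgeR glmTreat adjusted p of 0.0599. The 48 fell to 30 without miR-2355 replicate 2, and the 380 to 173 without miR-2355 replicate 1.

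The 2 miR-2355 libraries differed from the controls in the same direction in nearly all called genes. Over the 2127 higher genes the median log2 ratio to the mean of the controls was 0.70 in replicate 1 and 0.56 in replicate 2. Over the 3044 lower genes it was -0.94 and -0.79. Replicate 1 lay farther out in 1545 rises and 2280 falls. Past 2-fold it lay farther out in 309 of the 380 falls but in 16 of the 48 rises, whose medians were 1.99 in replicate 1 and 2.15 in replicate 2. For 2077 of the higher genes both libraries exceeded every control, and for 3003 of the lower genes both were below every control, where 24.9% and 27.8% of all tested genes met these conditions. These counts describe genes that were called on the same libraries. A gene differed by at least 2-fold between the 2 miR-2355 libraries in 4.15% of tested genes, and between pairs of controls in 2.51% to 9.51%, the higher values being those with control replicate 2. Such a gap between the miR-2355 libraries occurred in 46 rises and 45 falls.

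With a single miR-2355 library in the fit, assumed to vary like the other groups, replicate 2 alone gave 758 higher and replicate 1 alone 1670 higher genes among those tested in both fits. In both fits 626 genes were higher and 1461 lower, the latter out of 1569 and 2469. Genes called in opposite directions by these fits numbered 2, both lower with replicate 2 alone and higher with replicate 1 alone. Both fits used the same controls.

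**Figure D3:**
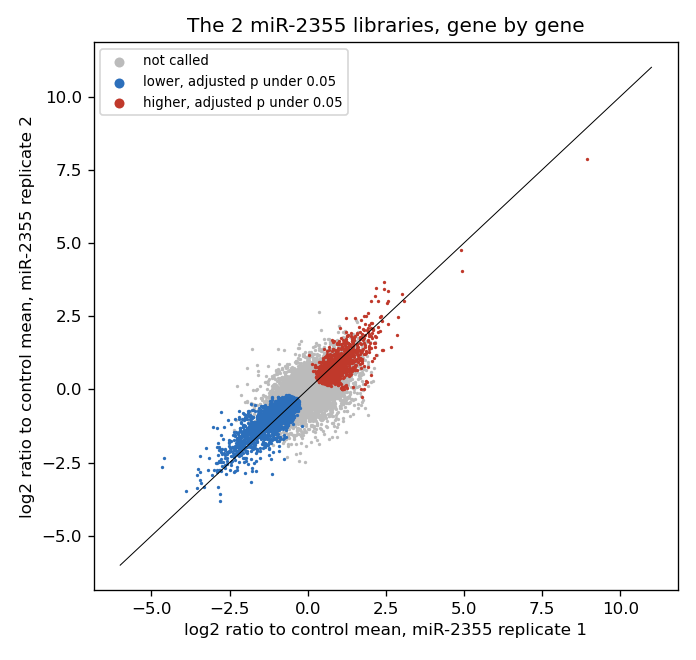
Each point is a tested gene, with its log2 ratio to the mean of the controls in miR-2355 replicate 1 (x axis) and replicate 2 (y axis); the line marks equal ratios, and colours mark the calls at an adjusted p under 0.05. Called genes lie along the line in both directions, and 3 rises lie far above the rest.

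The genes that rose past 2-fold took a small part of the control reads and a larger part of the miR-2355 reads. In the control libraries the 48 genes held 0.1169%, 0.1165% and 0.118% of the reads. In the miR-2355 libraries they held 0.839% and 0.912%. The 380 genes that fell past 2-fold held 2.985%, 3.207% and 3.166% of control reads and 0.804% and 0.979% of miR-2355 reads. Neither set overlapped between the groups, which follows from how the genes were picked. Over all higher genes the share of reads grew by 8.107 percentage points. A single gene gave 0.481 of these points, and it is also among the 48, whose share therefore rests largely on it. The top 10 gave 1.095 and the top 100 gave 3.197, and 169 genes made up 50% of the gain. The loss was spread more widely, with 291 genes making up 50% of it and a change of -0.115 points for the largest single loss. Shares with miR-1271 were similar. All higher genes held 23.93% and 21.95% of miR-2355 reads and 21.35%, 21.32% and 21.56% of miR-1271 reads. All lower genes held 10.65% and 12.44% of miR-2355 reads and 10.98%, 10.59% and 11.6% of miR-1271 reads.

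The 10 rows with the most reads held 9.10% ± 0.27 (SD, n = 3) of the reads with the control and 10.34% ± 1.12 (SD, n = 2) with miR-2355, and 1 of them was called, as higher. Among the 100 most read rows 18 were higher and 9 lower, where 12.3% and 17.5% of all tested genes were, and 1 and 2 of them passed 2-fold, where 0.277% and 2.19% did. Reads were concentrated on fewer rows with miR-2355 than with the control: 50% of the reads fell on 822 and 901 rows, against 938, 1037 and 988 in the controls. With miR-1271 the rows were fewer still, at 671, 614 and 750. The miR-2355 and control libraries did not overlap in this count. The exact permutation p between them was 0.1 (two-sided), and no smaller value is possible with 2 against 3 libraries. Of the 20547 rows with a read that did not pass the filter, 453 had reads in both miR-2355 libraries and in no control. These had at most 12 reads in a miR-2355 library. A further 155 had reads in all 3 controls and in no miR-2355 library, with at most 13 in a control. The second condition asks for reads in more libraries, the shallowest among them, so the counts cannot be set against each other.

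Of the rises, 2 are given in full by ID: the largest among genes whose mean log2 CPM was 1 or more, and the largest among those at 5 or more, called abundant here by their reads and not per length. The first was ENSG00000253008, and whether it is a microRNA gene could not be checked. It had 1527 and 607 reads with miR-2355 and 1, 0 and 1 with the control, or 81.6 and 38.9 CPM against 0.042, 0 and 0.047. In the miR-1271 libraries it had 0, 3 and 0 reads. The row was thus nearly restricted to the miR-2355 libraries, and no other group reached even 1 CPM. The ratio of pooled read shares, miR-2355 over control, was 1517 (exact 95% interval 419 to 12530, which covers counting error only), and the fitted log2 fold change was 10.26 (edgeR adjusted p = 5.36e-09). The row passed the low-count filter and the bound on mean log2 CPM only through its miR-2355 reads, so that it had to differ once tested, and the p-value supports nothing further.

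ENSG00000278540 rose most among the abundant genes and gave the largest single gain in reads. It stood at 202, 143 and 174 CPM in the 3 controls and at 5126 and 4619 CPM with miR-2355. Both miR-2355 libraries were at least 22.8-fold above the highest control, while they differed from each other by 1.11-fold. The log2 fold change was 4.81 ± 0.28 (SE; edgeR adjusted p = 1.91e-08). With miR-1271 the gene was at 7363, 4147 and 8819 CPM, a range that includes both miR-2355 values. The log2 difference between the microRNAs was -0.48 ± 0.26 (SE; edgeR adjusted p = 0.283).

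The falls given by ID were chosen in the same way. ENSG00000232060, the largest fall among genes at 1 or more, had 3.27, 3.65 and 5.13 CPM in the controls and 0.214 and 0.257 CPM with miR-2355, which rest on 4 reads in each miR-2355 library. The log2 fold change was -4.08 ± 0.43 (SE; edgeR adjusted p = 3.14e-06). That the groups did not overlap was a condition of the choice. The mean log2 CPM of 1.05 met the bound of 1 through the control reads, so the p-value describes the row and adds no support. With miR-1271 ENSG00000232060 was at 0.621, 0.891 and 0.792 CPM, also below every control but above both miR-2355 values. The log2 difference between the microRNAs was -1.69 ± 0.54 (SE; edgeR adjusted p = 0.0755). ENSG00000126777, the largest fall among abundant genes, had 672, 478 and 621 CPM in the controls and 49.9 and 76.2 CPM with miR-2355. Its lowest control was 6.27-fold above its higher miR-2355 library. The log2 fold change was -3.23 ± 0.20 (SE; edgeR adjusted p = 3.05e-08). With miR-1271 it was at 60.4, 60.7 and 64.4 CPM, between the 2 miR-2355 values, and the log2 difference between the microRNAs was 0.03 ± 0.18 (SE; edgeR adjusted p = 0.953).

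**Figure D4:**
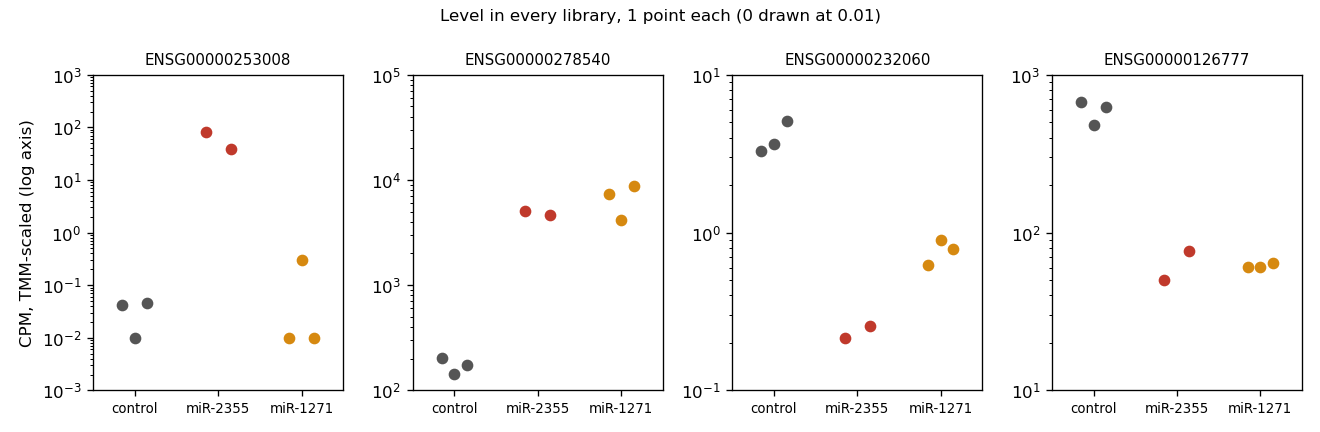
Each panel shows 1 gene ID, with 1 point for each library of the 3 groups (x axis) and the TMM-scaled CPM on a log axis (y axis); a value of 0 is drawn at 0.01. ENSG00000253008 is high in the miR-2355 libraries alone, while the other 3 IDs are shifted to the same side of the controls in both microRNA groups.

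The other large changes are given by their ranges. Among genes whose mean log2 CPM was 1 or more and whose groups did not overlap, the 12 largest rises had log2 fold changes of 2.66 to 10.26, and in every one the lower miR-2355 library was at least 3.33-fold above the highest control. Against miR-1271, 8 of the 12 were higher with miR-2355 (edgeR adjusted p under 0.05, where 3.50% of all tested genes were) and 4 were not called. Among those called is ENSG00000253008, which entered the test only through its miR-2355 reads. The 8 largest rises among abundant genes ran from 1.82 to 4.81, and 4 of these were higher than with miR-1271. The mean log2 CPM was taken over all libraries, so a rise can meet the bound through the microRNA libraries and a fall through the controls. The third of these 8 rises averaged 7.49 CPM in the controls and 58.3 CPM with miR-2355. In both lists genes were picked for high values in the miR-2355 libraries, which favours a higher value in this second contrast too. Of these 8, 2 rows may share reads: the fourth and the fifth kept a ratio between 0.826 and 1.21 in all 8 libraries, and reads of near-identical gene copies cannot be assigned with certainty. Both stood higher in miR-2355 replicate 2 than in replicate 1, by 2.04-fold and 1.98-fold. By the same terms the 10 largest falls ran from -3.14 to -4.08 and the 8 largest among abundant genes from -2.36 to -3.23, and none of either list was called between the microRNAs (edgeR adjusted p under 0.05, where 6.15% of all tested genes were). The largest disagreement between the miR-2355 libraries was in the third of the falls, with 1 read in replicate 1 and 10 in replicate 2, or 12-fold.

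Most of the strong rises were higher with miR-2355 than with miR-1271 too. Among the 48 genes that rose past 2-fold, 34 were higher with miR-2355 than with miR-1271 in the direct contrast (70.8%, against 3.50% of all tested genes) and none was lower. Among the 380 that fell past 2-fold, 13 were lower than with miR-1271 (3.42%, against 2.65% of all tested genes) and 4 were higher (3.50% of all tested genes were). These shares of the falls lie near those of all tested genes or below them. The median log2 difference between the microRNAs was 1.39 over the 48 and -0.09 over the 380. The genes were picked on the same miR-2355 libraries, so these shares are descriptions, and the share of falls and that of rises were not tested against each other. Without miR-2355 replicate 2 the 34 became 18, and the 13 ran from 1 to 15 on leaving out single libraries, lowest without miR-2355 replicate 1.

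The 34 rises had a median log2 fold change against the control of 1.96 with miR-2355 and 0.48 with miR-1271, both against the same 3 controls. Their range was 1.38 to 10.3 with miR-2355 and -0.56 to 1.5 with miR-1271. In all 34 both miR-2355 libraries were above the 6 other libraries, which follows largely from how the genes were picked. Of the 34, 25 were higher in replicate 2 than in replicate 1. The share of all tested genes was not computed for either count. The 34 held 0.087%, 0.0952% and 0.092% of control reads, 0.291% and 0.369% of miR-2355 reads, and 0.108%, 0.110% and 0.109% of miR-1271 reads. The remaining 14, which were not called between the microRNAs, had medians of 2.57 with miR-2355 and 2.21 with miR-1271. They held 0.0299%, 0.0212% and 0.026% of control reads and 0.548% and 0.542% with miR-2355. With miR-1271 they held 0.715%, 0.446% and 0.876%. ENSG00000278540 belongs to these 14 and provided most of their reads.

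**Figure D5:**
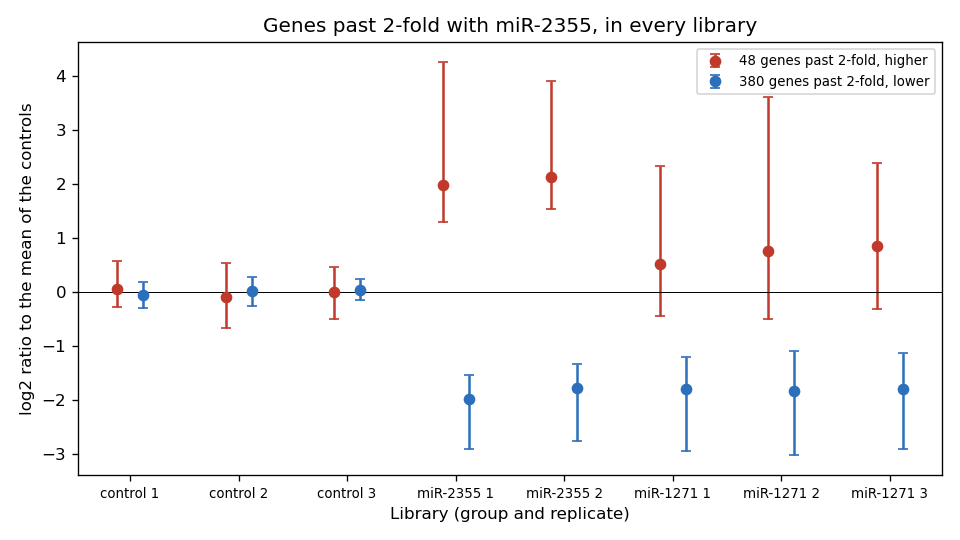
Points are medians over the 48 genes that rose (red) and the 380 that fell (blue) past 2-fold with miR-2355, as log2 ratio to the mean of the controls (y axis) in each of the 8 libraries (x axis); bars run from the 5th to the 95th percentile of the genes. The blue medians are close in the 2 microRNA groups (-1.98 and -1.77 with miR-2355, -1.78 to -1.83 with miR-1271), while the red ones are 1.99 and 2.15 with miR-2355 and 0.53 to 0.85 with miR-1271.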

How the data were processed

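The authors deposited raw read counts per Ensembl gene ID, 1 column per library, not normalized. The submitters' processing notes list BWA, featureCounts, hg38 and GRCh38; the versions, annotation release, strand setting and multi-mapping rule are not given in sources used here. As BWA is not a spliced aligner, junction reads can be lost in all libraries alike, and without a strand setting overlapping antisense genes cannot be told apart. Libraries were prepared with a Takara SMARTer kit, per the labels' protocols.

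Counts were filtered with filterByExpr (99.78% to 99.82% of reads kept), scaled by TMM and fitted with edgeR 4.0.16 in R 4.3.3 (limma 3.58.1) over all 8 libraries, 1 mean per group. glmQLFTest gave the calls and glmTreat the tests against 1.5-fold and 2-fold, which were added after the data had been seen. Standard errors are the log2 fold change over the root of the F statistic, and are approximate. Ratios of single libraries to the control mean used log2 CPM with a prior count of 2. DESeq2 1.42.0 was an alternative. The procedure was tested on simulated counts. Replicates differed beyond sampling noise (chi-square per degree of freedom 5.86 to 21.4).

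The comparison, lists and rules were chosen with earlier results of these data known. The rule for named genes required a symbol and left out microRNA genes. Without names neither clause could be applied, so a printed ID may be a microRNA gene. Only the clauses on size were used: the 12 largest rises and 10 largest falls with a mean log2 CPM of 1 or more, and the 8 largest of each at 5 or more. All had an adjusted p under 0.05 and no overlap between miR-2355 and control libraries. Because no ID has a name, 2 rises and 2 falls are printed by ID. The 28 gene lists set by symbol, the gene classes, the protein-coding fit and the seed-site classes were not run.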

Additional observations from a re-analysis of the deposited data

Results flagged for a closer look

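ENSG00000253008 differed between the microRNAs: the log2 difference, miR-2355 minus miR-1271, was 9.22 ± 0.48 (SE; edgeR adjusted p = 2.6e-08), with both miR-2355 libraries above all 3 miR-1271 libraries. The fitted size depends on the prior count, since the miR-1271 libraries held 0, 3 and 0 reads. The row entered the test only through its miR-2355 reads and was picked as the largest rise with miR-2355, so this p-value describes it and adds no support. Of the 4 printed IDs, the other 3 were not called in this contrast.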

How the results depend on the processing

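The 4 printed IDs kept direction and call under each alternative that could be run for them. They were picked as the largest called changes of the same counts, so this adds no support. Their log2 fold changes ran from 9.13 to 10.69 for ENSG00000253008, 4.69 to 4.95 for ENSG00000278540, -4.24 to -3.81 for ENSG00000232060 and -3.57 to -2.93 for ENSG00000126777. Calls of at least 2-fold, without testing against that fold, numbered 359 higher and 1246 lower. On leaving out single libraries, higher genes numbered 760 to 2241 and lower genes 1569 to 3000, rises past 2-fold 30 to 47 and falls 173 to 369, and rises past 2-fold that were also higher than with miR-1271 18 to 35. Falls past 2-fold that were also lower than with miR-1271 numbered 1 to 15 in these fits, 5 with library totals alone and 4 with the replicate block. Correlations of deviations from group means were -0.103 to 0.0185 between same-numbered libraries. With groups of 2 and 3 libraries these values cannot exclude a pairing, and the labels do not state one. The replicate block gave 1541 higher and 2505 lower genes. Equal depth gave 1693 and 2309, DESeq2 2127 and 2646, and the 5 libraries alone 1956 and 2679. The cause of these differences was not tested. In rarely read genes the precision was lower: the median standard error was 0.486 on the log2 scale in the least abundant quintile and 0.139 in the most abundant. Without control replicate 2, the shallowest library, 2076 genes were higher and 3000 lower.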
